A study of Mus musculus with 6 samples.

Results

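The ADAM proteins described here are 10 membrane proteins of mouse sperm and spermatids, and their transcripts were taken by gene symbol from a table of read counts for 54532 genes. All 10 were found in the table and all passed the filter on low counts: Adam1a, Adam1b, Adam2, Adam3, Adam5, Adam18, Adam24, Adam26a, Adam30 and Adam32. RNA came from whole testis in 6 libraries, 3 from wild-type (WT) mice and 3 from mice without the testis long non-coding RNA gene 1700052I22Rik (1700052I22Rik-KO, here KO). The study asked what this RNA does in sperm formation. The labels give no age, strain, extent of the deletion or number of mice. The p-values therefore reflect only how far these libraries spread, and that spread may be technical.

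ADAM proteins carry a metalloprotease-like domain, a disintegrin domain and usually a membrane anchor. In the germ line they are made in spermatocytes and spermatids, and many are cleaved as sperm mature and end on the sperm head. ADAM2 (fertilin beta) pairs with ADAM1A in the endoplasmic reticulum and with ADAM1B on the sperm surface, and ADAM3 must reach the surface for sperm to pass the uterotubal junction and bind the egg coat. In some members the protease site is intact, and in others it has been lost.

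The 10 genes fell into 2 structural classes in the GENCODE M21 annotation of the mm10 genome. The sequences below are shown because, within the 10, this split matched the order of the transcript levels per kilobase. The longest coding sequence of Adam2, Adam3, Adam5, Adam18 and Adam32 was spread over 19 to 22 coding exons. A search of these coding sequences in frame found no codons for the extended zinc-binding motif of the metalloprotease domain. Adam1a, Adam1b, Adam24, Adam26a and Adam30 had their whole coding sequence in 1 exon, and all 5 held the motif. Of 33 ADAM genes searched, 20 held it. Each line gives 51 bases of coding sequence, 5′ to 3′, with the 11 codons that span the motif in capitals.
Adam1a: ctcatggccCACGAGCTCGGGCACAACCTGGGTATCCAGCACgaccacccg
Adam1b: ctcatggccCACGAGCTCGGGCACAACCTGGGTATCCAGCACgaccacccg
Adam24: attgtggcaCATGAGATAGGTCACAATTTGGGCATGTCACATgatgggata
Adam26a: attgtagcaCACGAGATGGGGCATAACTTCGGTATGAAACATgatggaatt
Adam30: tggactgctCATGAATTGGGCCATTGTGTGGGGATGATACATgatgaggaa
The first capital codon was codon 370 of Adam1a, 338 of Adam1b, 342 of Adam24, 329 of Adam26a and 337 of Adam30, counted from the start codon. The stretch was the same in Adam1a and Adam1b, which were 82.0% identical over 2257 aligned coding bases. A match in the DNA does not measure protease activity.

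A group of 4 members lay in a row on the minus strand of chromosome 8 (mm10). Adam18 is at 24602246 to 24674755, Adam3 at 24677225 to 24725852, Adam5 at 24727093 to 24824369 and Adam32 at 24836140 to 24948804, with gaps of 2469, 1240 and 11770 bases and 0 other genes between them. The next gene on that side was Adam9, 806 bases past Adam32. Further along chromosome 8 lay Adam24 (40675077 to 40682199) beside Adam25, Adam20 and Adam39, and then Adam26a (43568278 to 43576707) between Adam26b and Adam34. Adam1b (121500098 to 121503435) and Adam1a (121518576 to 121545482) were 15140 bases apart on chromosome 5. Adam2 is on chromosome 14 (66027329 to 66077733) and Adam30 on chromosome 3 (98160630 to 98164169).

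For 5 of the members the counts could be assigned without near-identical copies. Adam5, Adam18, Adam24, Adam30 and Adam32 shared 0 of their 50-base stretches with a transcript of another gene, and Adam2 and Adam3 shared 1.74% and 1.72%. The counts of the other 3 are uncertain. Adam1b shared 32.4% of its 50-base stretches with Adam1a, and Adam26a shared 36.4% with other genes, mostly with Adam26b, to which it was 94.2% identical in coding sequence. Adam1a shared 77.8%, largely since 63.7% of its 7508 exonic bases are also annotated as Gm42878, an overlapping gene model with 0 counts in all libraries, and 24.0% as Mapkapk5. The coding transcript of Adam1a is 3496 bases long and shared 51.9% of its 50-base stretches. Its top partner was Adam1b, at 30.9%. Adam1b lies inside Tmem116 on the opposite strand but shares no exonic bases with it, whereas 11.3% of the exonic bases of Adam1a are also exonic in Tmem116. For Adam3 that share was 6.76%, with Gm45528 on the opposite strand. The sources used here do not say whether the authors' counting used strand.

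Depth was even, at 17635045 to 18117593 counts per library, and 1700052I22Rik had 175 to 218 counts in the WT libraries and 0 in each KO library. All 5 markers of round spermatids and all 5 of elongating spermatids were detected. Their summed levels were 763 to 994 and 10520 to 14173 CPM (read counts scaled to library size with TMM factors). Of 8 epididymis markers, 2 (Lcn5 and Lcn8) were at 0 throughout and 6 were detected, with a sum of 5.02 to 5.84 CPM in the WT and 5.12 to 5.67 in the KO libraries. Rnase10 gave most of it, at 61 to 85 counts, Spink8 and Defb41 had 5 to 18 and 9 to 16, Crisp1 at most 2, and Adam7 and Adam28, ADAM genes of the epididymis, at most 1 in any library. WT 1 and KO 2 stood apart from the other 4 libraries on principal component 1 (26.6% of the variance), at -22.8 and -30.2 against 6.98 to 17.5. In bulk RNA, fewer cells of a type and less RNA per cell cannot be told apart.

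The 10 transcripts were abundant and spanned a wide range. Together they took 0.383% to 0.441% of all counts of a library and 85.5% to 87.6% of the counts of the 34 ADAM family genes. The 4 neighbours on chromosome 8 alone held 73.9% to 76.6% of the counts of the 10 members, and the 5 members with the zinc-binding motif held 11.1% to 13.0%.

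Levels of different genes were compared as CPM per kilobase of the gene length in the deposited table. Adam5 was highest, at 404 ± 29.8 (mean ± SD over n = 6 libraries of both genotypes), followed by Adam3 at 347 ± 20.3, Adam32 at 237 ± 16.2, Adam2 at 195 ± 13.8 and Adam18 at 65.5 ± 3.42. Then came Adam1b at 44.6 ± 4.07, Adam24 at 38.8 ± 3.05, Adam30 at 25.3 ± 1.30, Adam26a at 21.3 ± 3.52 and Adam1a at 12.4 ± 0.502. The 5 members without the zinc-binding motif were thus above the 5 with it in every library, at 60.2 to 442 against 11.6 to 50.9 CPM per kilobase. Among the other ADAM genes the motif did not follow the order. Adam6a, Adam6b, Adam4 and Adam29, which lack it, averaged 38.4, 27.9, 26.8 and 19.2 CPM per kilobase, below Adam1b. Adam11, which also lacks it, was at 1.77 CPM per kilobase. Adam5 stood 32.6-fold above Adam1a on this scale, and 18.6-fold per kilobase of the transcript with the longest coding sequence, 13.9-fold per kilobase of coding sequence and 13.6-fold in CPM with no length. In CPM with no length the members with and without the motif were not apart in every library. Adam1b was above Adam18 in WT 1 (170 against 158), WT 2 (147 against 142) and KO 2 (160.22 against 160.17). It was below Adam18 in WT 3, KO 1 and KO 3.

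Neighbours in this order were not all apart. Adam5 was above Adam3 in 6 of 6 libraries, by 1.10-fold to 1.26-fold, yet their ranges overlapped. Adam32 was above Adam2 and Adam30 above Adam26a in 6 of 6 libraries, also with overlapping ranges. Adam1b was above Adam24 in 5 of 6 libraries, KO 3 being the exception. The steps from Adam3 to Adam32, Adam2 to Adam18, Adam18 to Adam1b, Adam24 to Adam30 and Adam26a to Adam1a had no overlap. The widest of these steps was from Adam2 to Adam18, by 2.80-fold to 3.20-fold. The place of Adam1a depended on the length used: per kilobase of its coding transcript it stood at 26.6, the eighth of the 10, and per kilobase of coding sequence at 39.2, the ninth.

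**Figure D1:**
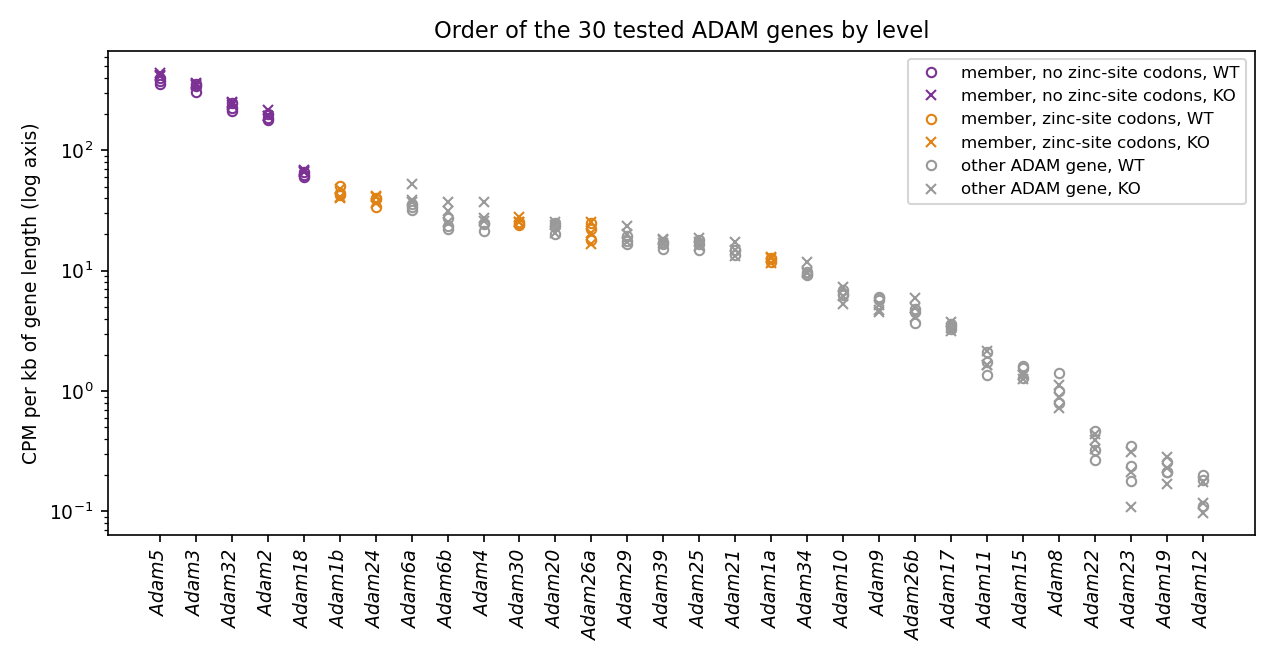
Levels of the 30 tested ADAM genes in each library, as CPM per kilobase of gene length on a log axis, ordered by their mean; circles are WT and crosses KO libraries. The 5 members without zinc-site codons (purple) lead the family, from Adam5 at 404 to Adam18 at 65.5. Adam1b and Adam24, which have these codons (orange), follow by their means. Adam6a (grey) comes next at 38.4, close to Adam24 at 38.8 and above it in WT 3, KO 1 and KO 3. Adam30, Adam26a and Adam1a (also orange) lie among the other ADAM genes (grey).

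The comparison of KO with WT asked whether loss of the RNA changed these transcripts. No member passed edgeR's quasi-likelihood test after Benjamini-Hochberg adjustment over 19320 genes (0 of 10, adjusted p 0.965 to 0.995), where 0.00518% of all tested genes were called. That share was 1 gene, 1700052I22Rik itself (edgeR adjusted p = 4.9e-07). DESeq2 and limma-voom also called 0 of the 10. At an unadjusted p under 0.05 in edgeR there was 1 member, Adam5, against 4.63% of all tested genes. The groups did not overlap for 1 member, again Adam5, against 9.32% of all tested genes (4.69% with KO higher and 4.63% with KO lower), so the count of 1 in 10 is near the background. The log2 fold changes (KO over WT) ran from -0.09 to 0.16, with 8 above and 2 below 0. Over all tested genes 9528 were above and 9792 below 0. The median was 0.08 for the members, beside -0.0025 over all tested genes. Members shared part of their deviations within a library, as given below, so the 8 are not separate results. The 95% intervals of the members were narrow. For 10 of 10 the interval lay within 1.5-fold in either direction, as it did for 61.6% of all tested genes.

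**Figure D2:**
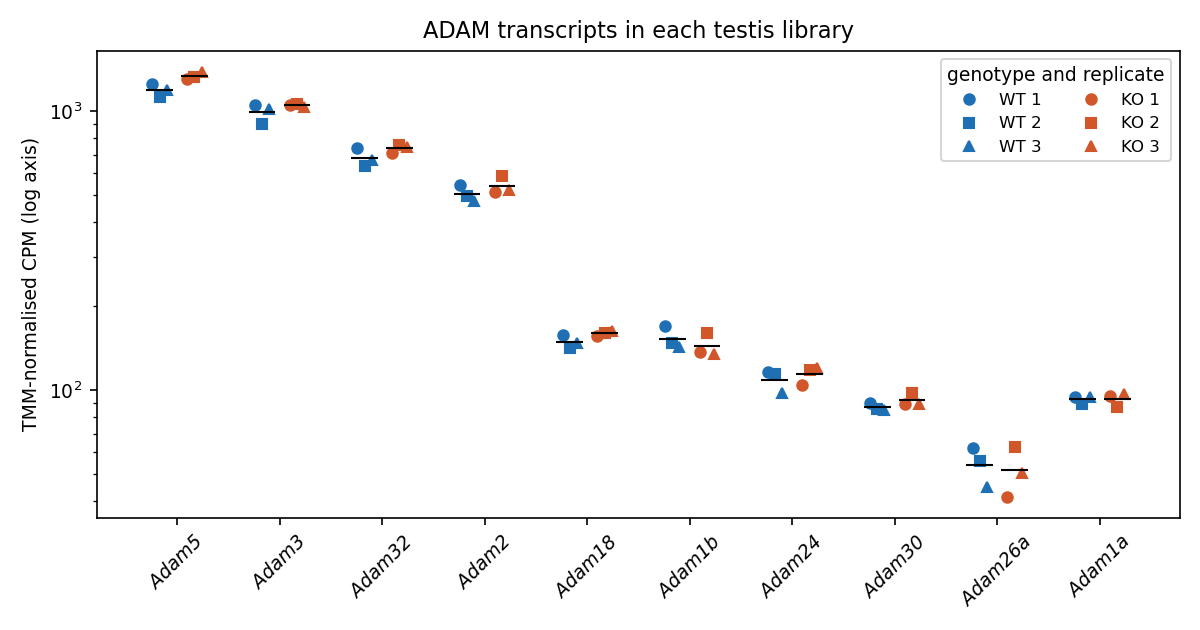
TMM-normalised CPM of the 10 transcripts in each library on a log axis, with WT in blue, KO in orange, the replicate number as the marker and black lines for group means. The groups overlap for every member except Adam5, at 1125 to 1257 CPM in WT and 1301 to 1383 in KO.

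Among the members without the zinc-binding motif, Adam5 was the most abundant. Adam5 stood at 1257, 1125 and 1192 CPM in the WT libraries, in the order of their numbers, and at 1301, 1323 and 1383 CPM in the KO libraries. All 3 KO libraries were above all 3 WT libraries, by 0.16 on the log2 scale (95% interval 0.03 to 0.30), or 12.1%. The unadjusted p in edgeR was 0.0178 and the adjusted p 0.965, so the difference did not pass over all genes. Without WT 2, the lowest library, the log2 fold change of Adam5 was 0.12.

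Adam3 encodes cyritestin, a protein that mouse males need for fertility. Adam3 had 1051, 904 and 1015 CPM in WT and 1057, 1062 and 1032 CPM in KO. The KO values lay close together and inside or just above the WT range, which was set at its low end by WT 2. The log2 fold change of Adam3 was 0.09 (95% interval -0.06 to 0.23), or 0.023 without WT 2 and 0.13 without WT 1.

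Adam32, a testis member that mice can lack and stay fertile, had 740, 634 and 670 CPM in WT and 708, 758 and 745 CPM in KO. WT 1 lay above KO 1, so the groups overlapped (log2 fold change 0.11, 95% interval -0.04 to 0.26, or 0.063 without WT 2 and 0.18 without WT 1). Adam18, the scarcest of the chromosome 8 neighbours, had 158, 142 and 148 CPM in WT and 156, 160 and 164 CPM in KO. Its groups overlapped through WT 1 alone (log2 fold change 0.10, 95% interval -0.06 to 0.26, or 0.066 without WT 2).

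Adam2 encodes fertilin beta, the partner of both ADAM1 proteins. Adam2 had 544, 499 and 478 CPM in WT and 515, 584 and 523 CPM in KO. WT 1 lay above KO 1 and KO 3, and the log2 fold change was 0.09 (95% interval -0.06 to 0.25), or 0.039 without KO 2 and 0.15 without WT 1. Adam1b, the fertilin alpha of the sperm surface, had 170, 147 and 143 CPM in WT and 138, 160 and 135 CPM in KO. It was the member with the lowest log2 fold change, -0.09 (95% interval -0.28 to 0.11), and its highest value was in WT 1. That log2 fold change was -0.0064 without WT 1 and -0.16 without KO 2. Adam1a, the fertilin alpha that acts inside the germ cell, had 94.4, 89.3 and 94.9 CPM in WT and 95.3, 87.3 and 96.7 CPM in KO. Its group means were the closest of the 10, at 92.8 ± 3.11 and 93.1 ± 5.08 CPM (SD, n = 3; log2 fold change 0.0043, 95% interval -0.17 to 0.18, with a sign that changed between alternatives).

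The testases are testis ADAM proteins with an intact protease site, here Adam24 (testase 1) and Adam26a (testase 3). Adam24 had 116, 114 and 97.6 CPM in WT and 105, 119 and 120 CPM in KO, overlapping groups with a log2 fold change of 0.07 (95% interval -0.13 to 0.26), or -0.0088 without WT 3. Adam26a had 62.0, 55.7 and 44.98 CPM in WT and 41.6, 62.8 and 50.8 CPM in KO. It varied most within both genotypes, with WT 1 and KO 2 high and KO 1 and WT 3 low, and had the widest interval, -0.37 to 0.23 around a log2 fold change of -0.07. That value ran from -0.23 without KO 2 to 0.068 without KO 1. Adam30, a further testis member with the protease motif, had 89.9, 85.8 and 85.2 CPM in WT and 89.2, 98.0 and 89.0 CPM in KO (log2 fold change 0.08, 95% interval -0.09 to 0.25, or 0.040 without KO 2).

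**Figure D3:**
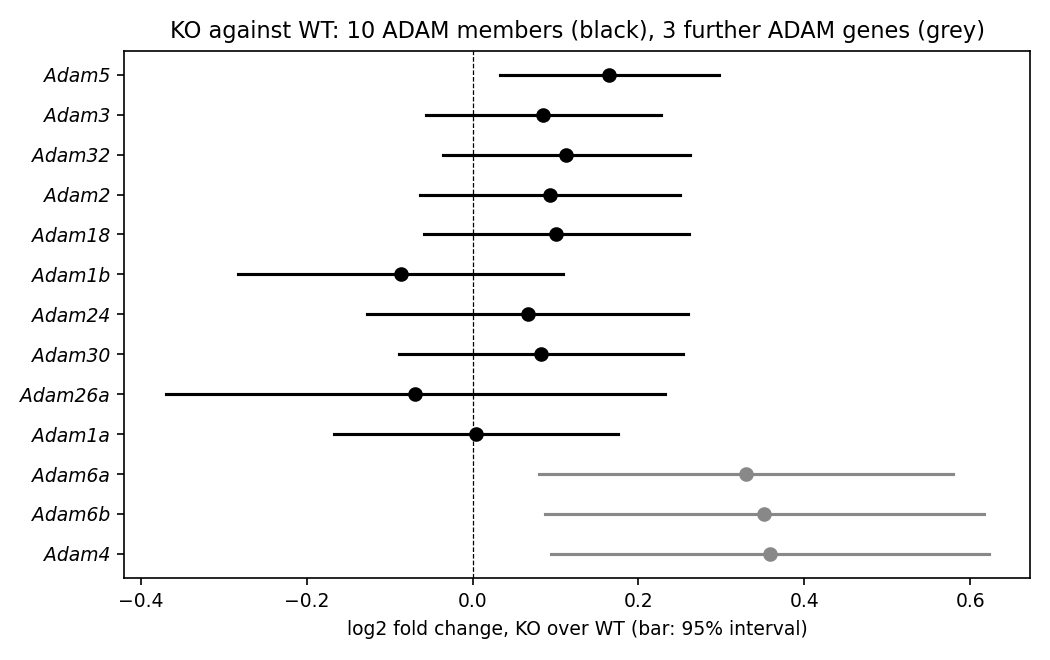
Log2 fold change of KO over WT with its 95% interval from edgeR's fit for the 10 members (black) and for Adam6a, Adam6b and Adam4 (grey). The intervals of 9 members include 0 and that of Adam5 runs from 0.03 to 0.30.

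Over the 6 libraries the coefficient of variation was 4.05% for Adam1a to 9.13% for Adam1b, with Adam26a apart at 16.5%. Counting error alone is 0.665% for Adam5 and 3.25% for Adam26a. The fitted biological coefficient of variation was 7.21% to 12.4%, beside 11.2% common to all tested genes.

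Members shared part of their deviations within a library. The mean deviation of the 10 from their own mean log2 CPM was 0.07 in WT 1, -0.07 in WT 2 and -0.09 in WT 3, and -0.04 in KO 1, 0.09 in KO 2 and 0.03 in KO 3. In WT 1 and KO 2, 9 of the 10 were above their mean, the exceptions being Adam5 in WT 1 and Adam1a in KO 2. In WT 2 and WT 3, 2 and 1 were. The 2 high libraries were those apart on principal component 1. Their summed Leydig cell markers (5 of 5 detected) were the lowest, at 205 and 224 CPM against 410 to 805 in the other 4. Pachytene spermatocyte markers summed to 853 and 873 CPM in WT 1 and KO 2, against 828 to 961 in the other 4. Round spermatid sums were 863 and 932 against 763 to 994, and elongating spermatid sums 12538 and 10520 against 11660 to 14173. Spermatogonium sums were 96.4 and 87.4 against 96.4 to 108. Summed macrophage markers (5 of 5 detected) were 43.8 to 64.2 CPM in WT and 38.3 to 47.8 in KO, and summed Sertoli cell markers (5 of 5 detected) 1480 to 1681 in WT and 1435 to 1490 in KO. The part of these cell types in the members' levels was not tested. Without WT 1 and KO 2 the median log2 fold change of the members was 0.09 and 0 were called.

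**Figure D4:**
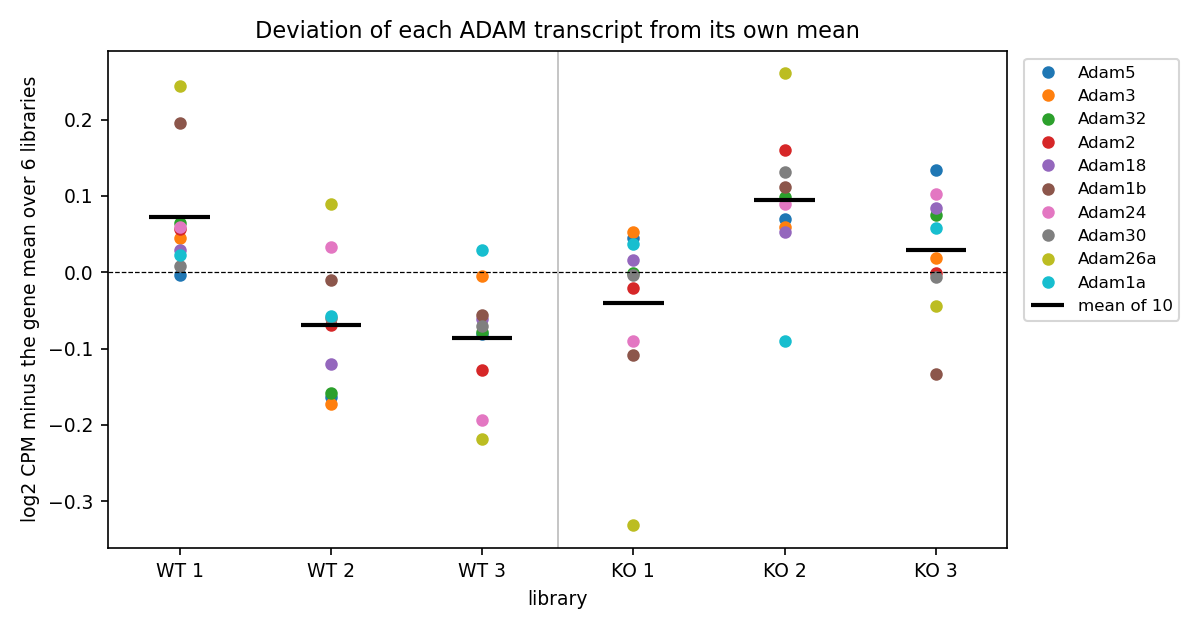
Log2 CPM of each of the 10 transcripts minus its own mean over the 6 libraries, by library, with a black line for the mean of the 10. The line is highest in KO 2 (0.09) and WT 1 (0.07), and Adam26a has the widest range, from -0.33 in KO 1 to 0.26 in KO 2.

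Some members followed each other closely across the 6 libraries. The smallest root-mean-square difference of centred log2 CPM between 2 members was 0.030, for Adam18 and Adam32, which lie in the same row of genes. Adam2 and Adam30, on different chromosomes, were next at 0.034, and Adam5 and Adam18 had the same value when rounded. The largest was 0.26, for Adam1a and Adam26a. Among 11030 other genes for proteins that averaged 5 CPM or more, those nearest to the mean profile of the 10 were Btbd7, Ranbp17 and Tram1, at 0.012, 0.013 and 0.014, where the median gene was at 0.13. The members themselves lay farther from that profile than these 3 genes, from 0.036 for Adam2 to 0.18 for Adam26a. All these values rest on the same 6 libraries, with no test.

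Ratios within a library remove what the library shares. Adam2 reads outnumbered Adam1b reads 3.20, 3.39 and 3.35 to 1 in WT 1 to WT 3 and 3.75, 3.65 and 3.87 to 1 in KO 1 to KO 3. All 3 KO libraries were above all 3 WT libraries, with a mean log2 ratio of 1.73 ± 0.043 over the WT and 1.91 ± 0.042 over the KO libraries (SD, n = 3), which differ by 0.18. The difference lay between 0.16 and 0.20 when each library was left out in turn. No test was run on it, and it was 1 of 4 ratios computed. With 3 libraries against 3, the smallest 2-sided p of an exact permutation test is 0.1, reached by any full separation.

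The other 3 ratios overlapped between the genotypes. The log2 ratio of Adam1a to Adam1b was -0.72 ± 0.13 in WT and -0.63 ± 0.21 in KO, and the difference ran from 0.017 without KO 3 to 0.21 without KO 2. That of Adam2 to Adam3 was -0.96 ± 0.11 and -0.96 ± 0.090, and that of Adam3 to its neighbour Adam5 was -0.27 ± 0.043 and -0.35 ± 0.066 (SD, n = 3). With each library left out these differences ran from -0.056 to 0.058 and from -0.10 to -0.040. KO 3 had the lowest ratio of Adam3 to Adam5, at -0.42. The ratios with Adam1b carry the uncertainty of its shared sequence.

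**Figure D5:**
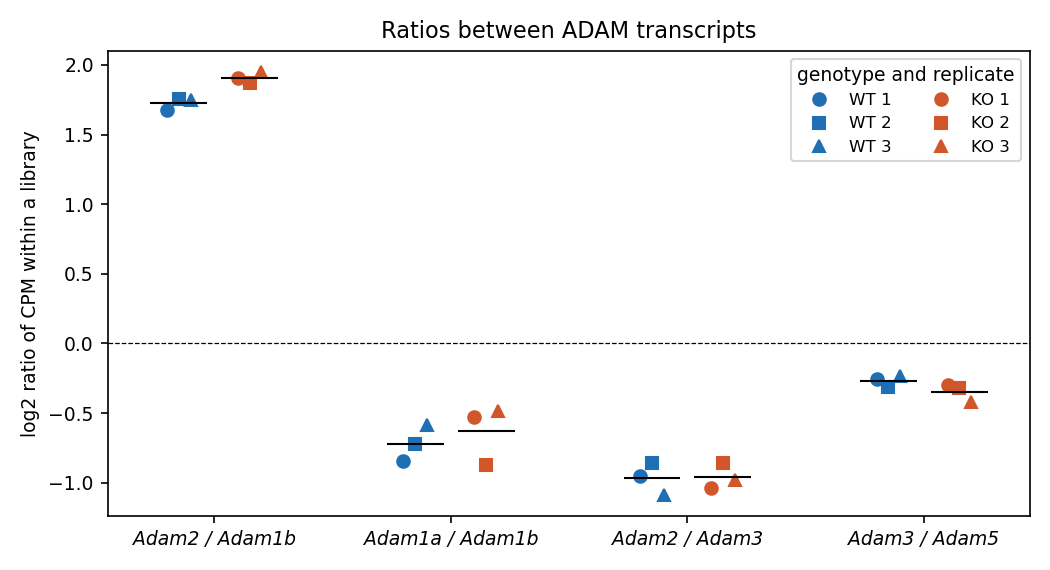
Log2 ratio of CPM within each library for 4 pairs of members, with WT in blue, KO in orange and black lines for group means. The groups are apart for Adam2 over Adam1b (1.68 to 1.76 in WT, 1.87 to 1.95 in KO) and overlap for the other 3 pairs.

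Of the 24 other ADAM family genes 20 were tested, and none was called by edgeR, DESeq2 or limma-voom. At an unadjusted p under 0.05 edgeR had 4 of them, 3 higher and 1 lower, against 4.63% of all tested genes. The groups did not overlap for 3 of the 20, against 9.32%. The median log2 fold change was 0.05. The 3 with the smallest p were Adam4, Adam6b and Adam6a, germ cell members that lack the zinc-binding motif, have a coding sequence in 1 exon and lie on chromosome 12. The gene missing in the KO, 1700052I22Rik, is also on chromosome 12, at 80923432 to 80924449. Adam4 is at 81419443 to 81421946, Adam21 at 81558584 to 81568474, Adam6b at 113489511 to 113492057 and Adam6a at 113543908 to 113546465. A part of this position in the values was not tested. The other ADAM genes of that chromosome, Adam21 and Adam17, had log2 fold changes of 0.07 and -0.01. Adam4, Adam6b and Adam6a were also among the 5 most abundant of the others, with Adam20 and Adam29.

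Adam6a had 87.3, 81.5 and 92.5 CPM in WT and 94.4, 99.6 and 134 CPM in KO. Adam6b had 59.9, 56.9 and 70.2 CPM in WT and 64.8, 79.4 and 94.5 CPM in KO. Adam4 had 61.1, 53.5 and 62.0 CPM in WT and 68.8, 64.5 and 93.2 CPM in KO. In each of these 3 genes KO 3 was the highest library. The log2 fold changes were 0.33, 0.35 and 0.36 (edgeR, adjusted p = 0.965 for each), and 0.15, 0.21 and 0.18 without KO 3. Adam6a and Adam6b were 94.9% identical in coding sequence, so their counts are uncertain, and 17.4% of the 50-base stretches of Adam4 occur in other genes.

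The gene next to Adam32 in that row, Adam9, is a broadly expressed ADAM protease and was 35.1-fold to 52.3-fold lower than Adam32 per kilobase. Adam9 had 23.6, 24.9 and 24.4 CPM in WT and 18.8, 21.2 and 19.6 CPM in KO. Every KO library was below every WT library, with a log2 fold change of -0.29 (95% interval -0.52 to -0.06, edgeR adjusted p = 0.965). Adam20, with the zinc-binding motif, and Adam29, without it, had log2 fold changes of 0.04 and 0.19.

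Genes that act on ADAM proteins gave no calls. Of 17 genes for chaperones and quality control of ADAM proteins in the testis, 17 were tested and 0 were called by edgeR, DESeq2 or limma-voom, with 0 at an unadjusted p under 0.05 (over all tested genes 0.00518% were called and 4.63% had such a p). The median log2 fold change of the list was 0.04. Clgn, the calmegin chaperone needed for the fertilin pair, averaged 845 ± 50.2 CPM over the WT and 865 ± 21.1 over the KO libraries (SD, n = 3). Hspa5, a general chaperone of the endoplasmic reticulum, had 707 ± 35.8 and 681 ± 42.3 CPM. Prss37, a protease-like protein needed for ADAM3 maturation, had the widest log2 fold change of the list, 0.22, with a 95% interval of -0.10 to 0.54. Tex101 and Cmtm2a, both needed for ADAM3 on sperm, had log2 fold changes of -0.11 and 0.11.

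Proprotein convertases cut off the prodomain of ADAM proteins. All 9 in the list were tested, 0 were called by edgeR, DESeq2 or limma-voom and 0 had an unadjusted p under 0.05, beside the same 0.00518% and 4.63% of all tested genes. Their median log2 fold change was -0.08. Pcsk4, the convertase of spermatids, was the most abundant, averaging 164 ± 10.1 CPM over the WT and 159 ± 4.85 over the KO libraries (SD, n = 3). Furin, the general convertase of the Golgi, had 22.02, 20.2 and 25.4 CPM in WT and 18.5, 20.1 and 18.9 CPM in KO. Its groups did not overlap (1 of 9, beside 9.32% of all tested genes), by a gap between WT 2 and KO 2 of under 1 CPM, and its log2 fold change was -0.24 (95% interval -0.49 to 0.02). Pcsk6, Pcsk7 and Mbtps1 had log2 fold changes of -0.22, 0.19 and -0.12.

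Other proteins of the sperm surface and of sperm-egg binding were measured for comparison. Of 14 listed genes 12 were found in the table by symbol, and all 12 were tested. Fimp and Sof1 were not found under these symbols, and other names were not searched. Of the 12, 0 were called by edgeR, DESeq2 or limma-voom, with 0 at an unadjusted p under 0.05, again beside 0.00518% and 4.63% of all tested genes. The median log2 fold change was 0.05. Crisp2, a cysteine-rich secretory protein of the acrosome and tail, averaged 1986 ± 182 CPM over the WT and 2137 ± 100 over the KO libraries (SD, n = 3). Zpbp2, an acrosomal protein, had a log2 fold change of -0.0045 and Hyal5, a sperm hyaluronidase, 0.20. Spaca6, needed for fusion with the egg, averaged 18.8 ± 0.678 CPM over the WT and 21.8 ± 2.45 over the KO libraries, with groups that did not overlap (1 of 12, beside 9.32% of all tested genes) and a log2 fold change of 0.21 (95% interval -0.04 to 0.46).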

How the data were processed

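Counts per Ensembl gene, 1 column per library, were deposited by the authors and are not normalised, per the file header. HISAT2 2.0.0 and mm10 are named in the submitters' processing notes. The counting tool, annotation release and strand setting were not given in the sources used here. The deposited table also gives a gene length in bases, another unit, which was used to set levels of different genes on 1 scale. Columns were matched to samples by name.

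Genes were kept with filterByExpr (minimum count 10, minimum total 15), scaled by TMM (factors 0.992 to 1.01) and tested with edgeR 4.0.16 (glmQLFit and glmQLFTest, all 6 libraries, no covariate), with Benjamini-Hochberg adjustment over 19320 genes and a threshold of 0.05. Intervals are 95% from moderated standard errors. DESeq2 1.42.0 and limma 3.58.1 (voom) were run in R 4.3.3 as alternatives, beside other scalings, other filters, the replicate block and each library left out. The edgeR fit was tested on simulated data. It recovered 43.3% of 67 changes of 1.5-fold, 65.7% of 67 of 2-fold and 90.9% of 66 of 4-fold, with 9 false calls. The changed genes were drawn at random from all tested genes and far outnumbered the genes called here. These rates therefore do not give the power for the 10 members. Centred log2 CPM used a prior count of 2. GENCODE M21 gave the same coordinates for all 10 members as the deposited table, and its transcripts gave exons, sequences, identities (Biopython 1.88, global alignment, gapped columns left out) and shared 50-base stretches.

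The members and lists were chosen with earlier results of these data known. All members were named, and from the other ADAM genes the 5 most abundant and the 3 with the smallest p. From each list the 3 genes with the smallest p and the 2 most abundant were named. Adam9, Adam21, the epididymis genes and the ADAM genes of the closing observations were named in addition, after their values were seen.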

Additional observations from a re-analysis of the deposited data

How the results depend on the processing

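Across 15 alternatives 0 of the 10 members were called, in 150 fits of a member. In 143 of these the direction was that given above, and in 7 it was the opposite. Adam1a, whose log2 fold change was 0.0043, was at -0.0082 with library size alone, and from -0.024 to 0.053 with each library left out. In the same way Adam24 ran from -0.0088 to 0.13 and Adam26a from -0.23 to 0.068, and the median of the 10 from 0.049 without KO 2 to 0.12 without WT 1. Over all genes 1 was called, and 50 with no low-count filter, 2 in DESeq2 and 1 to 3 with each library left out (3 without WT 2, 2 without WT 3 and 2 without KO 3). With neither WT 1 nor KO 2, an alternative chosen after seeing the data, 9 were called. The cause was not tested. With the replicate number as a block (replicate block) 1 gene and 0 members were called. Same-numbered libraries deviated with correlations of -0.17, -0.029 and 0.11, and 1 of 3 correlated best with its own number, so the numbers were not taken as pairs. By CPM alone 7 of the 10 members kept their place in the order. With GENCODE coding length, chosen after seeing the data, 8 did, and with GENCODE transcript length, chosen likewise, 7. Coding lengths of RefSeq proteins were not used here. The members had means of 948 to 22595 counts a library, and whether depth or the 3 libraries a group limit these values more was not tested.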

Other observations

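ADAM genes of somatic tissues were scarce beside the sperm members. Adam10 and Adam17, which release signalling proteins from the surface of most cells, averaged 32.0 ± 1.69 and 24.7 ± 1.27 CPM over the WT and 30.6 ± 4.91 and 24.4 ± 2.04 over the KO libraries (SD, n = 3). Adam15 and Adam8 were at 8.64 and 4.59 CPM over all libraries. Adam11, which lacks the zinc-binding motif, was at 10.1 CPM. Adam19 and Adam12, the meltrins, were tested at 1.61 and 1.55 CPM, and Adam33 was below the filter at 0.428 CPM. The rare copy Adam26b stood at 11.8, 11.2 and 9.08 CPM in the WT libraries, in the order of their numbers, and at 10.2, 14.7 and 12.1 CPM in the KO libraries. Its lowest WT library was WT 3 and its lowest KO library KO 1, as for Adam26a.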
